A study of Macaca mulatta with 8 samples.

Results

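Metallothioneins are small cysteine-rich proteins that bind zinc and copper, and they buffer free zinc and protect cells against metals and oxidants. Their genes lie side by side in primate genomes, and their transcription is switched on by zinc through the metal-responsive factor MTF1, and in many cells by glucocorticoids, interferons and other cytokines. In T cells they are known to rise with activation and to restrain zinc signals. The gene table held 4 metallothionein rows among 16429 genes, chosen by name (MT1 followed by 1 letter, MT2A or MT3). These were MT1M (ENSMMUG00000031088), MT1L (ENSMMUG00000010378), a second identifier also named MT1M (ENSMMUG00000030878) and MT1F (ENSMMUG00000010373). No row carried the name MT2A or MT3.

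The data are single-cell RNA counts from blood mononuclear cells of the rhesus macaque, taken per the series title after adoptive transfer of regulatory T cells (Tregs). On each of 2 days, day 3 and day 20, frozen cells were thawed, enriched for CD4 and sorted into 4 populations, with 1 library each. CFSE+ cells carry the dye that marks transferred cells, as read from the title. Cells sorted as CD3+CD4+CD25hiCD127lo have the surface phenotype of Tregs. Cells sorted as CD3+CD4+CD25posCD127pos or CD3+CD4+CD25negCD127pos are the other CD4 populations. The labels name no animal, drug, dose or age, so cells of several animals or of 1 cannot be told apart. The 8 libraries held 25397 cells, 1149 to 4751 a library, with 2992787 to 12149559 UMIs (counted RNA molecules). With 1 library per sort and day there is no replicate, so no test between conditions was possible. Intervals below are exact 95% intervals (Poisson for levels, Clopper-Pearson for shares) and cover counting error only.

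The cells carried T cell transcripts in every library (CD3D, CD3E, CD3G and CD2 summed to 1633 to 2910 UMIs per 1000000 UMIs of the library, CPM). CD4 itself was at 3.5 to 7.3 CPM. Markers of other cells summed to 3.7 to 21.6 CPM for 6 monocyte genes, 16.97 to 106 CPM for 4 B cell genes and at most 14.6 CPM for 4 NK cell genes. Red cell transcripts (HBB, HBA2 and ALAS2) ranged from 126 to 1559 CPM. Cells with at least 3 red cell, B cell or monocyte UMIs were left out as an alternative. Otherwise the part of these transcripts in the results was not tested. Cell barcodes shared between libraries belonged to 767 cells, or 3.02% of all.

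MT1M and MT1L made up nearly all metallothionein UMIs. MT1M had 3657 UMIs in 3065 cells and MT1L had 3426 UMIs in 2946 cells, with at most 7 and 8 UMIs in 1 cell. The second MT1M identifier had 49 UMIs in 49 cells, at 0.0823 to 1.52 CPM across libraries. MT1F had 13 UMIs in 13 cells, at no more than 0.530 CPM. It had 0 UMIs in the CFSE+ and CD25hiCD127lo libraries of day 20, which allows up to 1.002 and 0.456 CPM (3 counts of the total). Both rare identifiers were too low to compare. In the RefSeq gene table of the assembly T2T-MMU8v2.0, 9 metallothionein genes stand in a row on chromosome 20, in the order MT4, MT3, MT2A, MT1L, MT1E, MT1M, MT1J, MT1A and MT1X. None of the 4 identifiers of the count table could be matched to that table by identifier. The sequences behind these identifiers were not compared. Close copies may share reads, so how reads were split among them, or lost, is uncertain. A name here means the identifier given above.

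MT1M was close to absent from the transferred cells and present in every other population. In CFSE+ cells there were 25 MT1M UMIs on day 3, a level of 2.06 CPM (1.33 to 3.04), and 21 UMIs on day 20, or 7.02 CPM (4.34 to 10.7). On day 3 it was 50.05 CPM in CD25hiCD127lo cells, 69.1 CPM in CD25posCD127pos cells and 70.1 CPM in CD25negCD127pos cells. On day 20 these sorts held 119, 59.9 and 62.9 CPM. The intervals of both CFSE+ libraries lay below those of the other 6 libraries. Among those 6, the day 20 CD25hiCD127lo library (111 to 128) stood above the rest and the day 3 library of that sort (45.9 to 54.5) was the lowest, while the 4 libraries between them had intervals that overlapped with at least one neighbour.

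MT1L followed the same order of sorts with a smaller gap. In CFSE+ cells its day 3 level was 18.6 CPM (16.3 to 21.2), and its day 20 level 31.1 CPM (25.1 to 38.1). In CD25hiCD127lo cells it stood at 44.0 CPM (day 3) and 95.9 CPM (day 20). MT1L was at 51.3 and 51.7 CPM in CD25posCD127pos cells, and at 61.5 and 65.9 CPM in CD25negCD127pos cells. Here too both CFSE+ intervals lay below those of all 6 other libraries.

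**Figure D1:**
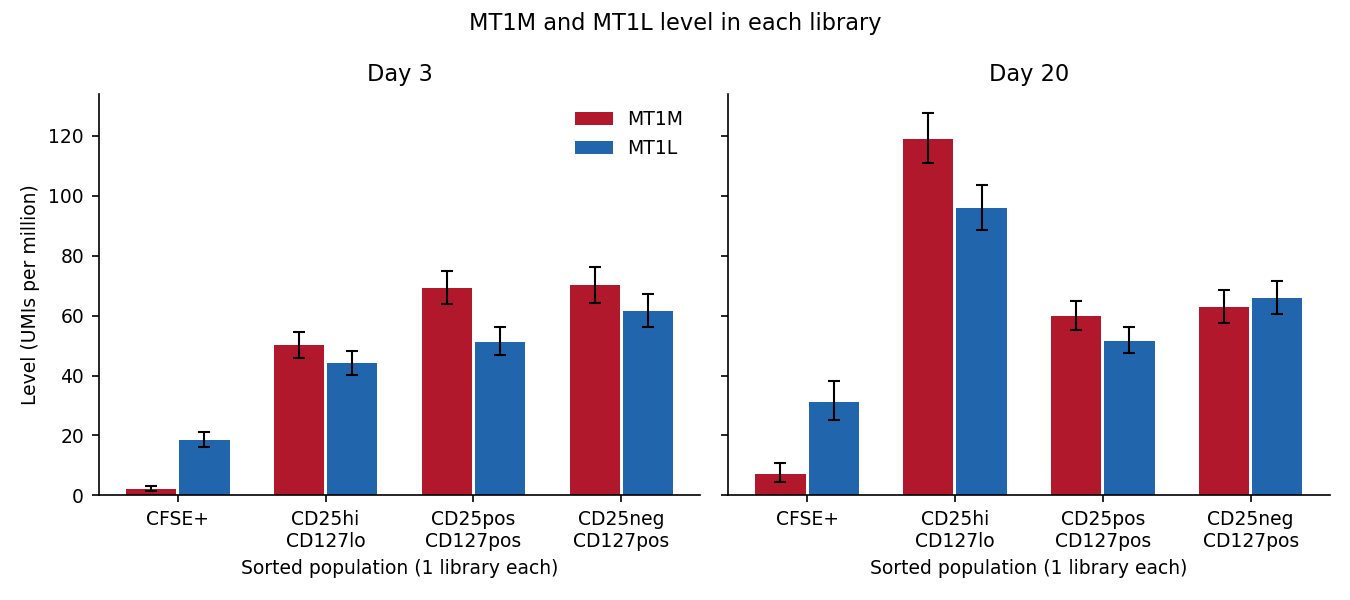
Level of MT1M (red) and MT1L (blue) in CPM in each of the 4 sorted populations on day 3 (left) and day 20 (right). Bars are the level of 1 library and error bars are exact Poisson intervals. MT1M stood at 2.06 and 7.02 CPM in CFSE+ cells against 50.05 to 119 CPM elsewhere.

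Against CD25hiCD127lo cells, MT1M in transferred cells was lower by 24.3-fold on day 3 (interval 16.3 to 37.9) and by 16.98-fold on day 20 (11.03 to 27.6). Against CD25negCD127pos cells it was lower by 34.1-fold (22.8 to 53.2) and 8.97-fold (5.80 to 14.6). For MT1L the same 4 comparisons gave 2.37-fold, 3.09-fold, 3.31-fold and 2.12-fold, with every interval above 1. The comparisons with either sort share their CFSE+ library.

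To set these against all genes, a gene counted as at least 2-fold lower when log2(CPM + 10) differed by 1 or more and 1 of the compared libraries reached 50 CPM. This scale understates changes of low genes. Against CD25hiCD127lo cells the MT1M difference was -2.32 on day 3 and -2.92 on day 20, where 3.18% and 2.19% of measured genes were at least 2-fold lower, and 10 of 2199 and 7 of 1963 genes were lower than MT1M. Against CD25negCD127pos cells it was -2.73 and -2.10, beside 7.29% and 2.2% of genes. On day 3 the median gene was itself higher in the transferred cells, by 0.41 and 0.52. TMM scaling brought these medians to 0.09 and 0.19. It turned the split of genes at least 2-fold higher and lower from 133 and 70 to 45 and 114 against CD25hiCD127lo cells, and from 324 and 165 to 108 and 247 against CD25negCD127pos cells. MT1M was lower in transferred cells under each scaling. MT1L passed the rule against CD25hiCD127lo cells on day 20 (-1.37) and against CD25negCD127pos cells on day 3 (-1.32). It did not on day 20 against CD25negCD127pos cells (-0.89), and on day 3 against CD25hiCD127lo cells (-0.92) neither library reached 50 CPM. MT1M was at 50.05 CPM in the latter library, at the edge of the rule, which it missed in 3 of 8 alternatives that kept its difference.

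As a share of cells, 0.555% of CFSE+ cells on day 3 (0.352 to 0.832) and 1.74% on day 20 had an MT1M UMI, against 11.9 to 25.4% in the other libraries. MT1L UMIs were found in 4.97% and 7.14% of CFSE+ cells and in 10.2 to 21.8% elsewhere. No population in these data is known to lack metallothioneins, so the share that free RNA gives was not measured, and its part in the few CFSE+ MT1M UMIs was not tested. Median depth was similar, at 2796 and 2588 UMIs per CFSE+ cell and 2131 to 3095 elsewhere. With each cell thinned to 1000 UMIs, MT1M was left in 0.218% and 1.04% of CFSE+ cells and in 5.35 to 10.6% of the others.

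The split between the genes also set the transferred cells apart. Of the UMIs of MT1M and MT1L together, MT1M held 9.96% in CFSE+ cells on day 3 (6.55 to 14.4, of 251 UMIs) and 18.4% on day 20 (11.8 to 26.8, of 114 UMIs). In the other 6 libraries it held 48.9 to 57.4%, with intervals from 45.8 to 60.4%. The genes may be captured at different rates, so the share has meaning only between groups of cells. The authors' class for transferred cells, transTreg, gave 9.79% and 16.5% within the same libraries.

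**Figure D2:**
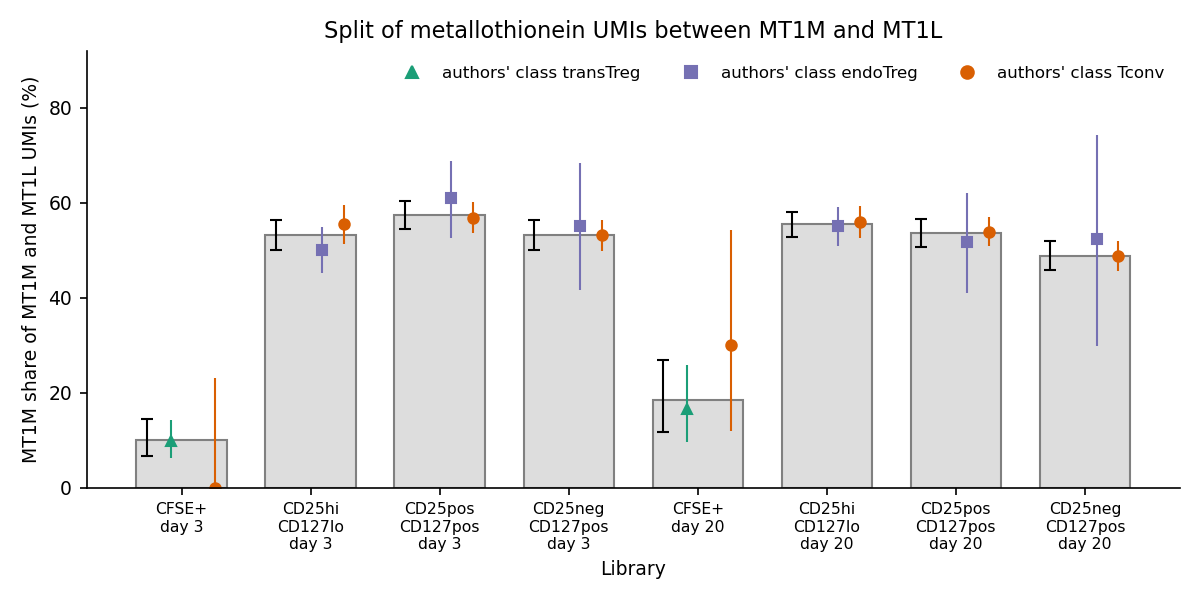
Share of MT1M in the UMIs of MT1M and MT1L (%) for each library (grey bars) and for the authors' classes within it (symbols, shown where the class had at least 10 such UMIs), with exact binomial intervals. Both CFSE+ libraries stood at 9.96 and 18.4%, and the other 6 between 48.9 and 57.4%.

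Because sort and library coincide, the authors' cell names were used to look at cells whose name and sort disagree. In the CD25hiCD127lo libraries 101 cells bore a finer name beginning with "transferred". Their MT1M level was 104 CPM (67.4 to 154) and their MT1L level 83.3 CPM, and MT1M held 55.6% of both. The 4976 cells with those names in the CFSE+ libraries had 2.66 CPM of MT1M, 19.4 CPM of MT1L and an MT1M share of 12.0%. For 1 name on 1 day, transferred_Naive_Tregs on day 20, MT1M was 99.4 CPM in 64 CD25hiCD127lo cells (14 UMIs) and 5.03 CPM in 985 CFSE+ cells (13 UMIs). Cells that share this name thus differed in MT1M by the sort they came from. The authors' class did not name the same cells. In that CD25hiCD127lo library transTreg held 49 cells, with 23.0 CPM of MT1M (4.75 to 67.3) from 3 UMIs. This interval overlapped that of the transTreg cells in the CFSE+ library of day 20 (5.38 CPM, 3.01 to 8.87).

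Pooled over days and classes, the reverse case gave an intermediate MT1M level. The 148 CFSE+ cells that the authors classed as endoTreg or Tconv had 21.1 CPM of MT1M (9.11 to 41.6) from 8 UMIs, above the 2.57 CPM of the 5143 transTreg cells beside them and below the 69.0 CPM of cells of those classes in the other libraries. Of these, 51 Tconv cells of day 3 had 0 MT1M UMIs (up to 22.3 CPM), and 2 UMIs came from 1 endoTreg cell. The 63 Tconv cells of day 20 had 41.2 CPM (15.1 to 89.6), overlapping Tconv cells of the CD25negCD127pos library (57.4 to 68.5). The pooled MT1L level of the 148 cells was 81.8 CPM (55.5 to 116), against 19.5 CPM in the transTreg cells, and MT1M held 20.5% of both (9.30 to 36.5). Cluster 10, described below, held 10 of these MT1L UMIs on day 3 (23 cells) and 6 on day 20 (9 cells). The 81 transTreg cells found outside the CFSE+ sort had 24.5 CPM of MT1M (7.94 to 57.1), from 5 UMIs, and 44.0 CPM of MT1L. These groups are small, and whether labelled cells or library-wide effects carry the difference cannot be told apart.

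Within the transferred cells of day 3, the finer names gave MT1M levels of 2.73 CPM for transferred_Effector_Tregs (1124 cells), 1.51 CPM for transferred_inTransition (2687 cells) and 3.22 CPM for transferred_Naive_Tregs (123 cells), with overlapping intervals. MT1L was at 19.98, 16.1 and 19.3 CPM in the same cells, also without a difference beyond counting error. A group that the authors named Unk2 had 19 MT1L UMIs in 61 cells (98.8 CPM, 59.5 to 154) and 0 of MT1M, a count that allows up to 15.6 CPM. On day 20 Unk2 had 111 CPM of MT1L in 40 cells (57.1 to 193, 12 UMIs) and 18.4 CPM of MT1M from 2 UMIs.

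Between the days, metallothioneins moved in the CD25hiCD127lo sort and hardly in the CD127-positive sorts. In CD25hiCD127lo cells MT1M was 2.38-fold higher on day 20 than on day 3 (2.13 to 2.66) and MT1L 2.18-fold higher (1.93 to 2.46). On the log2(CPM + 10) scale these were 1.10 and 0.97, so that MT1M passed the 2-fold rule, as did 2.54% of the 1854 genes measured, and MT1L fell just short. In CD25posCD127pos cells the day 20 level was 0.867 times that of day 3 for MT1M (0.774 to 0.970) and 1.01 times for MT1L (0.888 to 1.14). CD25negCD127pos cells gave 0.897 for MT1M (0.793 to 1.01) and 1.07 for MT1L (0.944 to 1.22). In those sorts 0% and 0.0572% of genes were at least 2-fold higher. In CFSE+ cells MT1M was 3.41-fold (1.82 to 6.35) and MT1L 1.67-fold higher on day 20 (1.30 to 2.14), but neither reached 50 CPM, and 4.09% of genes there were at least 2-fold higher.

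The day 20 level of the CD25hiCD127lo sort was higher across its cell groups. Classed as endoTreg, its cells went from 48.3 to 117 CPM of MT1M. Classed as Tconv, they went from 51.3 to 124 CPM. MT1M was higher on day 20 in 7 of 7 clusters with at least 50 cells on both days, a view chosen after the data were seen, from 1.23-fold in cluster 6 to 3.96-fold in cluster 8, and in 6 of these the interval lay above 1. MT1L was higher in 7 of 7, from 1.62-fold to 2.84-fold, with 5 intervals above 1. In the CD25posCD127pos sort MT1M was higher on day 20 in 2 of 7 clusters, with 0 intervals above 1 and 2 below. These clusters share 1 library per day and are not independent. Red cell transcripts fell from 1559 to 140 CPM in the CD25hiCD127lo sort between the same libraries. Without doublet-like cells, which include all with at least 3 red cell UMIs, the log2 differences were 1.08 for MT1M and 0.99 for MT1L. With all cells they were 1.10 and 0.97. The part of red cell RNA in the cells kept was not tested. Within this sort the naive-named Tregs had less MT1M than the effector-named ones on day 3 (33.7 CPM, 27.1 to 41.5, against 69.8 CPM, 57.6 to 83.7). On day 20 the values were 103 CPM (85.4 to 124) and 131 CPM (112 to 152), with overlapping intervals.

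**Figure D3:**
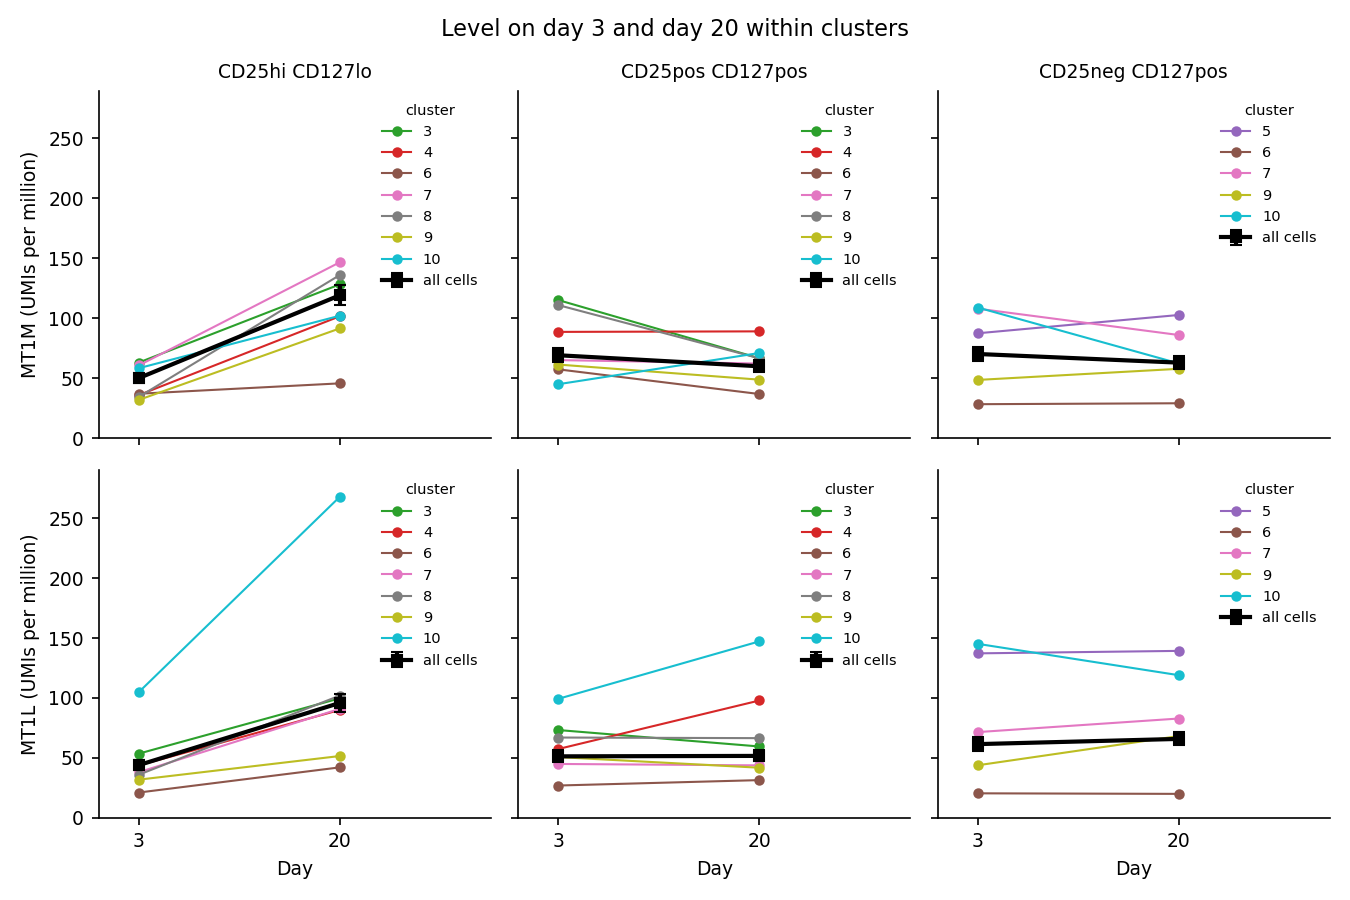
Level of MT1M (top) and MT1L (bottom) in CPM on day 3 and day 20 in the 3 sorts other than CFSE+. Coloured lines are the authors' clusters with at least 50 cells on both days and the black line, with Poisson intervals, is the whole library. In the CD25hiCD127lo sort all 7 cluster lines rise for both genes, and in the other sorts they go both ways.

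Among clusters 3 to 10, with the CFSE+ libraries left out, cluster 6 had the lowest levels of both genes. It held 31.4 CPM of MT1M on day 3 and 31.1 CPM on day 20, and 21.0 and 22.8 CPM of MT1L. This cluster is rich in transcripts of naive T cells such as LEF1 (258 and 268 CPM), and poor in S100A4 (61.7 and 56.1 CPM), a calcium-binding protein of memory and effector cells. LEF1 did not set it apart. Cluster 7 had 235 and 234 CPM of LEF1, with 73.0 and 82.3 CPM of MT1M, and cluster 10 had 204 and 192 CPM of LEF1. Most of its cells, 83.5% and 82.2%, came from the CD25negCD127pos sort. Clusters 3 to 5 and 7 to 10 held 46.1 to 110 CPM of MT1M. Cluster 2, mostly CFSE+ cells, had 57 cells in the other libraries of day 20, with 27.2 CPM of MT1M (7.41 to 69.7) from 4 UMIs.

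MT1L was highest in clusters 5 and 10. Cluster 5, nearly all from the CD25negCD127pos sort, carried cytotoxic transcripts (GZMB, granzyme B, at 5000 and 5669 CPM, and NKG7 at 1269 and 1154 CPM) and had 136 CPM of MT1L on day 3 and 135 CPM on day 20. Cluster 10, of which no library made up more than 47.9%, had 112 and 169 CPM. In the other clusters MT1L ranged from 21.0 to 91.9 CPM. For MT1M clusters 5 and 10 did not stand out in this way. Cluster 5 had 86.1 CPM on day 3 (68.9 to 106) and 103 CPM on day 20 (84.4 to 124), overlapping cluster 3 (77.8 and 110 CPM), and cluster 10 had 65.1 and 76.2 CPM. The MT1M share of both genes was 38.7% and 42.9% in cluster 5 and 35.1% and 30.7% in cluster 10, counted over all libraries of a day. In clusters 3, 4 and 6 to 9 it was 49.1 to 60.0%.

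**Figure D4:**
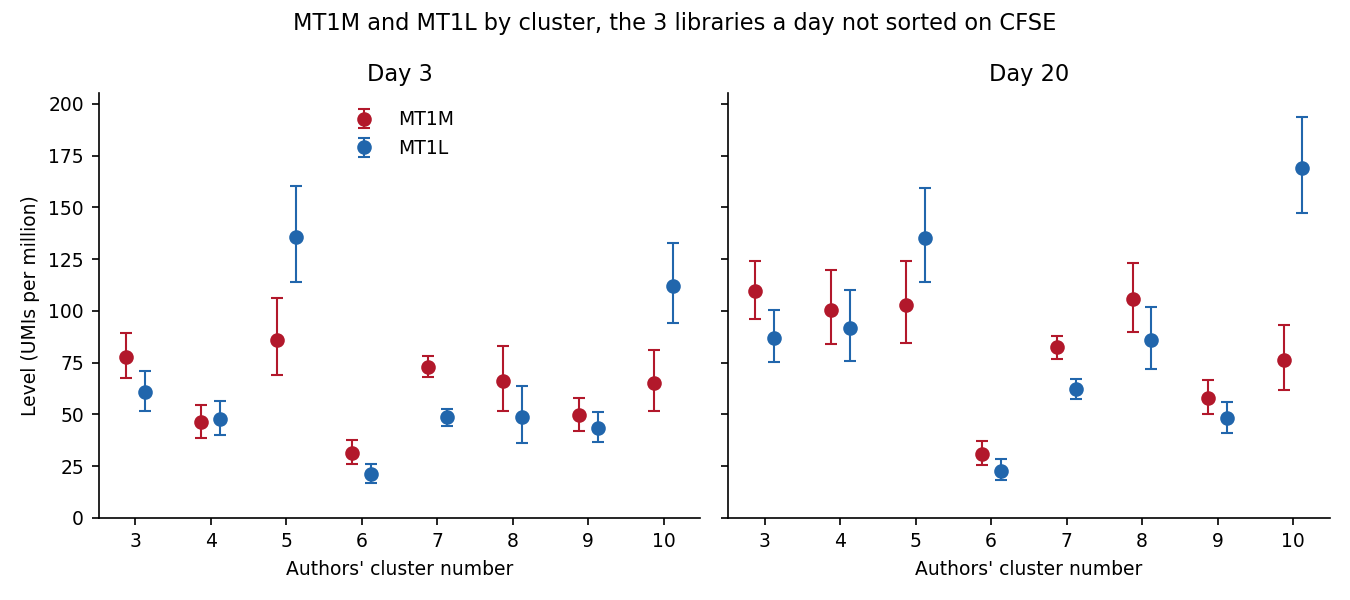
Level of MT1M (red) and MT1L (blue) in CPM in the authors' clusters 3 to 10 on day 3 (left) and day 20 (right), summed over the 3 libraries a day that were not sorted on CFSE, with exact Poisson intervals. Clusters 5 and 10 had the highest MT1L on both days, and cluster 6 the lowest MT1M and MT1L.

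Cluster 10 was rich in interferon-stimulated transcripts. A list of 26 interferon-stimulated genes, added after the values were seen, summed to 7309 CPM in cluster 10 on day 3 and 7882 CPM on day 20. ISG15, a ubiquitin-like antiviral protein, was at 1827 and 1811 CPM and MX1, an antiviral GTPase, at 708 and 818 CPM there. Cluster 5 had 873 CPM of the list on day 3 and 1037 CPM on day 20, far below cluster 10. Among clusters 3 to 9 only cluster 3 had more (1303 and 1547 CPM). The rest held 439 to 784 CPM on day 3 and 504 to 802 CPM on day 20. Cluster 1, mostly CFSE+ cells, was also rich in these transcripts on day 20, with 6421 CPM of the list and 1213 CPM of ISG15. Its 53 cells of that day had 60.6 CPM of MT1L (26.2 to 120) from 8 UMIs, and 0 UMIs of MT1M (up to 22.7 CPM). On day 3 cluster 1 held 824 CPM of the list.

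Cells with an MT1L UMI were compared with the cells without one inside each of 7 libraries that held at least 100 of each kind. Of 1242 named genes that were measured throughout, the 6 with the largest smallest difference are all known interferon-stimulated genes: ISG15, MX1, IFI27, LAP3, RNF213 and SP100. ISG15 was at 332 CPM with and 133 CPM without MT1L in CD25hiCD127lo cells on day 3, and at 468 and 85.6 CPM in CFSE+ cells on day 3. Its log2 difference ranged from 1.12 to 2.32 over the 7 libraries, and that of MX1 from 0.75 to 1.82. Of the 26 listed genes 6 were measured, and 6 of 6 were higher in every library, beside 10.5% of all measured genes. The list was drawn up with these genes in view, so the count is no separate evidence. Without clusters 5 and 10, 3 were measured and IFI27 and RNF213 were higher in every library, beside 9.67% of genes. Median depth differed little between cells with and without MT1L (2054 to 3302 against 2126 to 3069 UMIs).

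For MT1M the same genes gave smaller values. In 6 libraries, ISG15 ranged from -0.15 to 0.96 and MX1 from -0.11 to 0.81 between cells with and without an MT1M UMI, and 3 of 7 measured listed genes (IFI27, SP100 and RNF213) were higher in every library, beside 16.5% of all genes.

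Grouping cells by their interferon UMIs views the same association from the other side. It uses the same cells and the list drawn up with these genes in view, so it is no separate evidence. Cells with 8 or more UMIs of the list had more MT1L than cells with 0 or 1 in 8 of 8 libraries, by 1.92-fold to 2.81-fold, with 8 of 8 intervals above 1. In CD25posCD127pos cells on day 20, for example, MT1L was at 121 CPM in 334 such cells and 45.3 CPM in 2756 cells at the low end. The CFSE+ cells followed suit at a lower level, at 39.6 against 15.2 CPM (day 3) and 67.1 against 23.9 CPM (day 20). MT1M gave 0.817-fold to 1.42-fold in the 7 libraries where a ratio could be taken, higher in 6 of 7, and 0 of 7 intervals lay above 1. In CFSE+ cells on day 3 MT1M had 0 UMIs in the 181 cells at the high end. Without clusters 5 and 10, MT1L remained higher in 8 of 8 libraries, by 1.13-fold to 2.39-fold, but only 3 intervals lay above 1, and for MT1M 2 did. Cells of a library are not replicates, and whether MT1L and MT1M differ from each other in this respect was not tested.

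**Figure D5:**
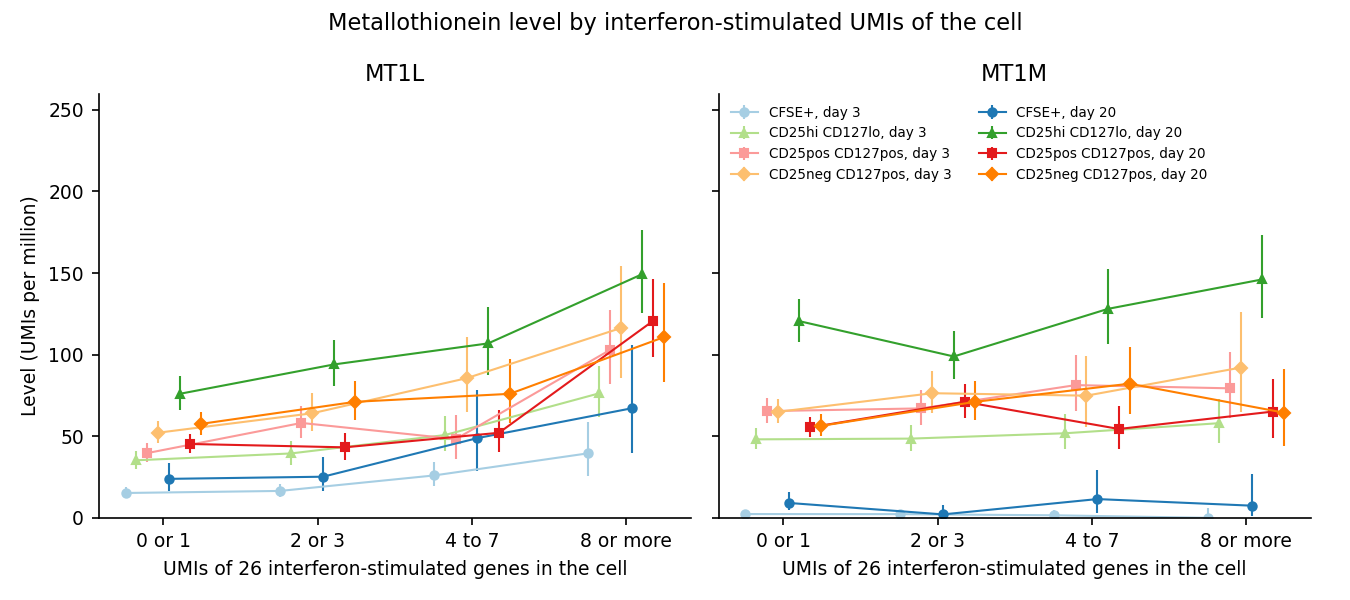
Level of MT1L (left) and MT1M (right) in CPM in cells grouped by their UMIs of 26 interferon-stimulated genes, 1 line per library, with exact Poisson intervals. MT1L is higher at 8 or more UMIs than at 0 or 1 in all 8 libraries, and for MT1M it is higher in 6 of 7 libraries with a ratio, with 0 intervals above 1.

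MT1L was detected more often in cells that had an MT1M UMI. In the 6 libraries outside the CFSE+ sort, MT1L UMIs were present in 15.4 to 32.4% of cells with MT1M and 9.46 to 18.2% of cells without, a ratio of 1.51 to 2.71. The intervals of both shares were apart in each library. After thinning to 1000 UMIs the ratio was 1.24 to 2.38 and the intervals overlapped in 3 of 6 libraries (both of the CD25hiCD127lo sort and CD25posCD127pos on day 3), and within cluster 7 alone, thinned, 0.864 to 1.964. Of all genes, MT1L had the largest smallest difference between cells with and without an MT1M UMI (log2 0.53 to 1.32, median 0.70, of 1281 named genes). CLTA (clathrin light chain), ACTG1 (an actin), DBI (an acyl-CoA binding protein), UCP2 (a mitochondrial carrier) and IFI27 came next, with smallest differences of 0.175 to 0.205. On the lower side ERLEC1, KRT10, SUSD6, EEF1D and TPT1 led, with small median differences of -0.17 to -0.07. Within the largest class of each library MT1L again led (median 0.75), while the other 5 higher genes changed.

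Across the 8 libraries, the genes whose levels (log2 of CPM + 10) lay closest to MT1M by Pearson correlation, of 1982 genes compared, were STK17A (0.972), GPR183 (0.964), TOMM20 (0.954), ITGB1 (0.945), MT1L (0.945) and ANXA1 (0.944). STK17A is a kinase of the DAP family, GPR183 guides lymphocyte migration, TOMM20 belongs to the mitochondrial import pore, ITGB1 is an integrin chain and ANXA1 is annexin A1. The low CFSE+ libraries set much of this likeness, and GPR183, for example, was at 6.502 and 22.1 CPM there against 107 to 191 CPM elsewhere. Without those libraries, over 6 libraries, the value for MT1L was 0.924. Among these the day 20 CD25hiCD127lo library stood apart in both genes, at 119 CPM of MT1M and 95.9 CPM of MT1L. The others spanned 50.05 to 70.1 CPM of MT1M and 44.0 to 65.9 CPM of MT1L, and no value without that library was taken. These are descriptions over 8 points with no test.

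The genes that handle zinc beside the metallothioneins were too low to judge. Of 9 genes found among MTF1 and the zinc exporters, 0 reached 50 CPM in any library. MTF1 was at 7.1 to 13.8 CPM and SLC30A1, the exporter that MTF1 controls, at no more than 1.67 CPM. Of 12 zinc importers found, 3 were measured in transferred against CD25hiCD127lo cells on day 3 and 0 passed the 2-fold rule. SLC39A7 was at 53.3 against 24.0 CPM and SLC39A1 at 51.2 against 29.6 CPM in that comparison. The median gene there was itself higher by 0.41, and the importers were not rescaled.

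In transferred against CD25hiCD127lo cells 6.05% of all measured genes were at least 2-fold higher on day 3 and 0.458% on day 20, beside the 3.18% and 2.19% lower, and the few genes called on the following lists are read as descriptions. Among 13 genes of copper and iron handling, 4 were measured and 1 was higher in transferred cells on day 3, the copper chaperone ATOX1 (346 against 145 CPM, a log2 difference of 1.20). Under TMM scaling, an alternative added after the data were seen, this became 0.87, below 2-fold. On day 20 it was at 214 against 152 CPM, and 0 of 4 passed the rule. On day 3 ferritin transcripts were at 1916 (FTH1) and 2271 CPM (FTL) in transferred cells and at 1267 and 1640 CPM in CD25hiCD127lo cells. These values were not rescaled, and the median gene of that day was itself higher by 0.41. On the oxidative stress list GCLM, a subunit of the enzyme that begins glutathione synthesis, was higher on day 3 (234 against 52.5 CPM), the only call among 5 measured genes, and remained 2-fold higher under TMM scaling (1.66). The glucocorticoid list had 5 measured genes. ZFP36L2 and ANXA1 were lower in transferred cells on day 3 and DDIT4 was higher. ANXA1 was at 47.2 against 479 CPM, ZFP36L2 at 88.8 against 189 CPM and DDIT4 at 175 against 76.3 CPM. Under TMM scaling the log2 differences were -3.38 for ANXA1, -1.31 for ZFP36L2 and 0.79 for DDIT4, so that the DDIT4 call was lost. TSC22D3, the glucocorticoid-induced leucine zipper gene, was at 474 against 281 CPM on day 3, short of the rule. In CD25hiCD127lo cells TSC22D3 went from 281 CPM on day 3 to 473 CPM on day 20, short of the 2-fold rule, and 0 of 5 genes of that list passed it. The other sorts moved the same way. In their cells without an MT1M UMI, TSC22D3 went from 355 to 478 CPM (CD25posCD127pos) and from 394 to 434 CPM (CD25negCD127pos).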

How the data were processed

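The authors deposited whole UMI counts per gene and cell of 10x 3' version 2 libraries, with each cell's library, day, cluster, class and finer name. The submitters' processing notes list Cell Ranger 2.1.1. Not given in the sources used here: genome build, annotation and cell filters. Cells were assigned by the deposited library names, and 0 columns of per-sample values were left unused.

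Counts were summed over the cells of a library or group and divided by its total (CPM). Ratios carry exact intervals from the conditional binomial distribution, and 3 counts set the floor for values of 0. The call rule was a 2-fold difference of log2(CPM + 10) with at least 50 CPM in 1 library. A check on simulated counts used larger changes in higher genes, with counting noise only. It does not cover calls near 2-fold or near 50 CPM. Named genes were all members, the 6 genes most correlated with MT1M, the 6 in each direction with the largest smallest difference between cells with and without MT1M, and examples of the lists. 1 gene that this rule picks is not reported here. The members and lists were chosen with earlier results of these data known, and the MT1L contrast and interferon list after their values were seen. No doublet caller was run. edgeR 4.0.16 (TMM) and DESeq2 1.42.0 (size factors) gave scaling alternatives only. Other steps used Python 3.11.15, numpy 2.4.6 and scipy 1.17.1.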

Additional observations from a re-analysis of the deposited data

Results flagged for a closer look

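MT1M moved in opposite directions between the days in different sorts. Its log2(CPM + 10) difference of day 20 against day 3 was 1.10 in CD25hiCD127lo cells and -0.18 in CD25posCD127pos cells, 1.28 apart. In CFSE+ cells it was 0.50, 0.68 apart from CD25posCD127pos cells. Each sort had 1 library a day, and the difference was not tested. Red cell transcripts were at 1559 and 140 CPM in the CD25hiCD127lo libraries and at 306 and 126 CPM in the CD25posCD127pos libraries. Without doublet-like cells, which include all with at least 3 red cell UMIs, the MT1M differences were 1.08 and -0.17. The part of red cell RNA in the cells kept was not tested.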

How the results depend on the processing

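No log2 difference of MT1M or MT1L that was called under the settings used in the text changed its sign. No paired analysis was possible because each sort had 1 library a day, and for the same reason no library could be left out. A pseudocount of 1 CPM moved MT1M in transferred cells to -4.06 (day 3) and -3.91 (day 20) against CD25hiCD127lo and to -4.54 and -2.99 against CD25negCD127pos cells, and its day difference in CFSE+ cells to 1.39. For MT1L of day 3 it gave -1.20 and -1.67. A pseudocount of 30 CPM gave MT1M values of -1.32, -2.01, -1.64 and -1.33 in the same order, day differences of 0.21 (CFSE+) and 0.90 (CD25hiCD127lo), the latter no longer 2-fold, and MT1L values of -0.61 and -1.04 (CD25hiCD127lo, day 3 and 20), -0.91 (CD25negCD127pos, day 3) and 0.77 (day difference, CD25hiCD127lo). On day 3 MT1L moved under TMM to -1.14 and -1.57 and under median-of-ratios scaling to -1.15 and -1.57. MT1L against CD25negCD127pos cells on day 20 passed the 2-fold rule in 4 of 8 alternatives. Leaving out 1059 doublet-like cells, or the 258 cells with the most metallothionein UMIs, moved none of these 16 differences by more than their counting error. Doublet-like cells had at least 3 red cell, B cell, monocyte or platelet UMIs, or over 2 times the median UMIs of their library. Red cell UMIs marked 563 cells.

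Genes at least 2-fold apart numbered 203 and 52 against CD25hiCD127lo and 489 and 81 against CD25negCD127pos cells (days 3 and 20), and 160, 53, 2 and 3 between days in the CFSE+, CD25hiCD127lo, CD25posCD127pos and CD25negCD127pos sorts. A pseudocount of 30 CPM gave 121, 31 and 299 for the first 3 counts, and 92 and 18 for the day counts of CFSE+ and CD25hiCD127lo. Without the 50 CPM minimum there were 320, 110 and 172 (CD25negCD127pos, day 20), and 5 between days in CD25posCD127pos. The CD25hiCD127lo day count was 30 under TMM and 29 under median-of-ratios scaling. That of CD25posCD127pos was 11 under either scaling, 8 with a pseudocount of 1 CPM and 1 without doublet-like cells. That of CD25negCD127pos was 5 with a pseudocount of 1 CPM and 0 without doublet-like cells. TMM also turned the higher and lower split from 38 and 43 to 20 and 53 (CD25negCD127pos, day 20) and from 91 and 69 to 109 and 36 (CFSE+ between days). By Spearman correlation 2 of the 6 genes most like MT1M were shared. Of the 12 genes picked for cells with MT1M, 5 were shared within the largest class and 2 within cluster 7. The causes were not tested. The CFSE+ values of MT1M rest on 25 and 21 UMIs.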
